A study of Mus musculus with 6 samples.

Results

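The genes described here are those by which a muscle cell leaves the cell cycle: the cyclin-dependent kinase (CDK) inhibitors Cdkn1a, Cdkn1b and Cdkn2c, the growth arrest genes Gadd45a, Gadd45b and Gadd45g, the D-type cyclins Ccnd1, Ccnd2 and Ccnd3, and the retinoblastoma gene Rb1. They were taken by gene name, and all 10 were found among the 46983 gene rows of the count table. RNA was sequenced from cultures of C2C12, a mouse muscle cell line of clonal origin, after 7 days of differentiation in 2% horse serum. Fetal bovine serum (FBS) at 10% is also recorded for every library, at a culture stage not given here. Corticosterone-treated myotubes had 24 h with the hormone at 1e-07 M, and vehicle myotubes had 24 h with ethanol at 1 µL/mL. The labels give the genotype of both groups as WT. There were 3 libraries of each, from biological replicates that the submitters call independent. The question was which of these genes differ in level between corticosterone-treated and vehicle myotubes.

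In a dividing myoblast, D-type cyclins bind the kinases CDK4 and CDK6, which phosphorylate the retinoblastoma protein and so free E2F factors to switch on S phase genes. CDK inhibitors of the Cip/Kip family, encoded by Cdkn1a (p21) and Cdkn1b (p27), and of the Ink4 family, including Cdkn2c (p18), oppose these kinases. During myogenic differentiation p21 and cyclin D3 rise and the retinoblastoma protein holds the nucleus in permanent arrest. Gadd45 proteins are small stress-induced proteins that bind p21 and PCNA and activate the stress kinase MAP3K4, and Cdkn1a and Gadd45a are textbook targets of the tumour suppressor p53.

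RefSeq promoter windows on GRCm38.p6, each 300 bases long with 250 bases before a start and 50 after it, were matched for 7 of the 10 genes, and Ccnd1, Ccnd2 and Rb1 were not matched. The stretches printed are those of Cdkn1a and the Gadd45 trio, as stress-induced genes of one pathway, and of Cdkn1b, the inhibitor whose libraries did not overlap between the labels. They stop at whichever start, RefSeq's or GENCODE's, comes first. Capitals mark matches, on either strand, to the CCAAT box (CCAAT), the TATA box (TATAAA), the myogenic E-box (CAGCTG), the E-box of bHLH-zipper factors (CACGTG), the octamer (ATTTGCAT), the hexamer of the glucocorticoid receptor element (TGTTCT, not met in the printed stretches) and a single decamer of the p53 consensus.
Cdkn1a, upstream of its 5′-most start, chr17:29090729-29090975, plus strand: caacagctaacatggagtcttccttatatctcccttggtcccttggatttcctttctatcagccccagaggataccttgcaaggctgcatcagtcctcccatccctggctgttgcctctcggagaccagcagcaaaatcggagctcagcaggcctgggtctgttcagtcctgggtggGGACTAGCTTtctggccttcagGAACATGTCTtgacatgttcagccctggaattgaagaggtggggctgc
Cdkn1b, chr6:134920151-134920400, plus strand: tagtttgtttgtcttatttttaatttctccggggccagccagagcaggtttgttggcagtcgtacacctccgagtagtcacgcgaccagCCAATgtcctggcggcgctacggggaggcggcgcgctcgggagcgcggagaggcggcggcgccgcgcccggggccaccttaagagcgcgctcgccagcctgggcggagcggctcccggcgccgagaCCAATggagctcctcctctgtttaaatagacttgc
Gadd45a, chr6:67037458-67037657, minus strand: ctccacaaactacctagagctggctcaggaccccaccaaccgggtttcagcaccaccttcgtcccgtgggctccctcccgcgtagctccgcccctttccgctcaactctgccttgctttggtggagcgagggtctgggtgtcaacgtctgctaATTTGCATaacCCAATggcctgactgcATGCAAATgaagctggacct
Gadd45b, chr10:80929841-80930072, plus strand: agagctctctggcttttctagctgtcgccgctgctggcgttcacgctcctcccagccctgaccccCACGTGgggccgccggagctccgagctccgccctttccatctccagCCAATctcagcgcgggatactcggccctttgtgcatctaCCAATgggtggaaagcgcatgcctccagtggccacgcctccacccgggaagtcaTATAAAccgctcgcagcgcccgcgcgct
Gadd45g, chr13:51846425-51846674, plus strand: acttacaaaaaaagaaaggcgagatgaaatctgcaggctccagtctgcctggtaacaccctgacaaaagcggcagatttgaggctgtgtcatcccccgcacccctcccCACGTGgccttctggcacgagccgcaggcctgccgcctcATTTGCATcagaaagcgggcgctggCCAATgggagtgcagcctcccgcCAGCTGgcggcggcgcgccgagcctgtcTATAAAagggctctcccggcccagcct

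Over the full windows the octamer was matched in Gadd45a, on both strands, and in Gadd45g, and in 1.74% of all 32851 mouse windows. CCAAT was matched in all 3 Gadd45 windows, in Cdkn1b, Cdkn2c and Ccnd3, and in 37.4% of all windows. TATAAA was matched in Gadd45b and Gadd45g (13.6% of all windows) and CACGTG in Gadd45b, Gadd45g and Cdkn2c (7.15%), while CAGCTG, the E-box bound by myogenic factors, was matched in Gadd45g and Cdkn1a (16.3%). A p53 decamer was matched in the upstream Cdkn1a window, at 2 places, and in the Gadd45a window past the printed stretch, and in 8.36% of all windows. The glucocorticoid receptor hexamer was matched in Cdkn2c alone of the 7 genes, against 19.0% of all windows. None of the searched motifs overlapped another in the printed stretches, and a match describes letters, not binding.

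Total counts ran from 25826081 to 29928653 in the corticosterone libraries and from 23877583 to 28496898 in the vehicle libraries. The 14450 genes kept by the count filter included all 10 genes described here, the lowest count among them being 230 (Ccnd2 in corticosterone 3). Values are CPM, counts scaled to library size with TMM factors, and means carry the SD. Glucocorticoid-induced genes contradict the labels of the libraries labelled corticosterone 2 and vehicle 2. CPM of Fkbp5, whose product restrains the glucocorticoid receptor, were 151, 36.9 and 135 for corticosterone 1, 2 and 3, against 36.9, 177 and 35.4 for vehicle 1, 2 and 3. Tsc22d3 and Per1 also lay highest in corticosterone 1, corticosterone 3 and vehicle 2. Every direction given by label therefore rests on labels that these genes contradict, and values are also given for the reading in which corticosterone 1, corticosterone 3 and vehicle 2 stand together. That reading was drawn from measured levels, so it is described without means or tests. Myotube markers were abundant in every library, led by Acta1, skeletal actin, at 4651 ± 177 CPM under corticosterone against 4079 ± 474 CPM under vehicle and Des, desmin, at 2504 ± 288 CPM under corticosterone against 2581 ± 196 CPM under vehicle (SD, n = 3 each), whereas Tnnc2, a fast troponin named for its low value, had counts of only 1 to 5.

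Levels per kb of exon set the order of the genes within these myotubes. The length was that of all annotated exons of a gene merged, and the order depends on it. By mean CPM alone Ccnd3, at 310, stood above Gadd45a, at 234, and Gadd45g, at 84.9. Cdkn1a averaged 688 CPM per kb over the 6 libraries and ranked 34 among 14406 genes with an annotated length. Gadd45a followed at 133 CPM per kb (rank 307) and Gadd45g at 72.3 (rank 661), and the library ranges of these 3 genes did not overlap. Ccnd3 at 35.3, Gadd45b at 33.5 and Rb1 at 31.6 CPM per kb could not be ordered, since their ranges of 30.2 to 43.6, 26.8 to 43.7 and 22.2 to 38.9 overlapped. Cdkn1b at 14.4, Ccnd1 at 12.8 and Cdkn2c at 9.39 CPM per kb came next. The range of Ccnd1, 8.05 to 17.0, took in the whole range of both neighbours. Ccnd2 was lowest at 1.89 CPM per kb (rank 10225), and its highest library, at 2.71, lay below every library of the other genes. Of the remaining CDK inhibitors, Cdkn2a and Cdkn2b had 0 counts in all 6 libraries, against a floor of 3 counts, or 0.103 to 0.125 CPM.

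None of the 10 genes passed the test between corticosterone-treated and vehicle myotubes (edgeR quasi-likelihood test, threshold 0.05 on the adjusted p), nor did any gene of the 14450 tested (0%). At an unadjusted p under 0.05 there were 3 of the 10, Cdkn1b, Gadd45g and Rb1, where 11.8% of all genes fell there. The same 3 were those whose libraries did not overlap between the labels, against 16.6% of all genes. Gadd45g and Rb1 lay higher under corticosterone (8.41% of all genes were higher without overlap) and Cdkn1b lay lower (8.19%). DESeq2 called 0.955% of all genes and none of the 10, and limma-voom called none. 6 of the 10 log2 differences, corticosterone minus vehicle, were positive, with a median of 0.13, against 7343 of 14450 and a median of 0.004 over all genes.

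**Figure D1:**
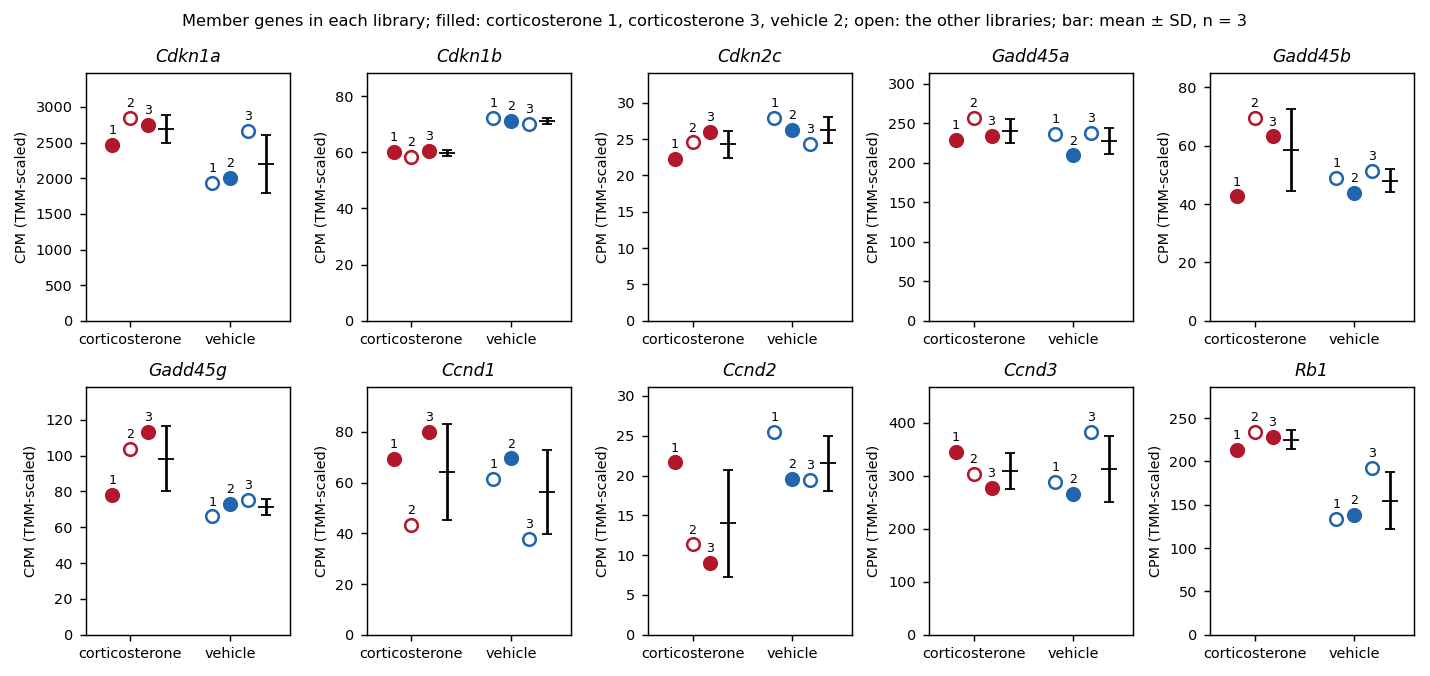
TMM-scaled CPM of each of the 10 genes in every library, corticosterone left and vehicle right, numbered by replicate, with the mean and SD of each group (n = 3). Filled points are corticosterone 1, corticosterone 3 and vehicle 2. Cdkn1b, Gadd45g and Rb1 show no overlap between the labels, and Ccnd1 shows its 3 filled points, at 69.5 to 80.02 CPM, above its 3 open points, at 37.9 to 61.6 CPM.

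Of the 3 CDK inhibitors, Cdkn1b was the one whose libraries did not overlap between the labels. It encodes p27, which holds cyclin E and cyclin A kinases inactive in resting cells (ENSMUSG00000003031, GRCm38 chromosome 6, 134920401 to 134925513). Cdkn1b gave 60.3, 58.4 and 60.6 CPM under corticosterone and 72.3, 71.2 and 70.1 CPM under vehicle. The corticosterone libraries lay close together and all 3 lay below every vehicle library. The means were 59.8 ± 1.19 CPM under corticosterone against 71.2 ± 1.11 CPM under vehicle (SD, n = 3 each), with -0.25 ± 0.06 (SE) as their log2 difference (edgeR adjusted p = 0.364, DESeq2 adjusted p = 0.105). The difference ran from -0.30 to -0.24 over all 15 alternative settings, without a call in any of them, and was -0.24 with both libraries numbered 2 left out.

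Cdkn1a, which encodes p21 (ENSMUSG00000023067, chromosome 17, 29090976 to 29100727), was abundant in all libraries and overlapped between the labels. It gave 2469.7, 2846 and 2745 CPM under corticosterone and 1935, 2004 and 2664 CPM under vehicle. Vehicle 3 lay above corticosterone 1, and the other vehicle libraries lay below all the rest. The means were 2687 ± 195 CPM under corticosterone against 2201 ± 403 CPM under vehicle (SD, n = 3 each), with 0.29 ± 0.14 (SE) as their log2 difference (edgeR adjusted p = 0.463). Without vehicle 3 the difference was 0.44 (adjusted p = 0.0992), and with both libraries numbered 2 left out it was 0.18. Part of its exon sequence, 273 bases, overlaps AC167363.2, a transcript of the class to be experimentally tested (TEC) on the other strand.

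Cdkn2c, which encodes the CDK4 and CDK6 inhibitor p18 (ENSMUSG00000028551, chromosome 4, 109660876 to 109667189), gave 22.3, 24.5 and 26.0 CPM under corticosterone and 27.9, 26.3 and 24.4 CPM under vehicle. The groups overlapped, and the log2 difference was -0.11 ± 0.10 (SE, edgeR adjusted p = 0.651). Of the 5 other inhibitors listed, 3 were tested and 0 passed. Cdkn2d, an Ink4 inhibitor like Cdkn2c, averaged 25.6 ± 1.27 CPM under corticosterone against 23.8 ± 1.28 CPM under vehicle and Cdkn1c, which encodes p57, at 11.4 ± 2.05 CPM under corticosterone against 9.20 ± 2.23 CPM under vehicle (SD, n = 3 each; adjusted p = 0.644 and 0.58). Both overlapped between the labels.

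Gadd45g was the Gadd45 gene that separated the labels. It is a growth arrest gene of the stress response (ENSMUSG00000021453, chromosome 13, 51846678 to 51848468), and its promoter stretch is the one above that holds the octamer, both E-boxes and the TATA box together. Gadd45g gave 78.05, 103.8 and 113 CPM under corticosterone and 66.1, 72.9 and 75.1 CPM under vehicle. Corticosterone 1 stood just above vehicle 3, while corticosterone 2 and 3 stood well above every other library. The means were 98.4 ± 18.2 CPM under corticosterone against 71.3 ± 4.68 CPM under vehicle (SD, n = 3 each), with 0.46 ± 0.14 (SE) as their log2 difference (edgeR adjusted p = 0.364, DESeq2 adjusted p = 0.124). The difference ran from 0.35, without corticosterone 3, to 0.60, without corticosterone 1 (adjusted p = 0.074), and was 0.44 with both libraries numbered 2 left out.

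Gadd45b, a Gadd45 gene induced by TGF-beta and NF-kB signalling in other cells (ENSMUSG00000015312, chromosome 10, 80930073 to 80932204), was split within the corticosterone group. It gave 42.6, 69.5 and 63.2 CPM under corticosterone and 48.9, 43.7 and 51.5 CPM under vehicle. Corticosterone 1 was the lowest of the 6 libraries and corticosterone 2 the highest. Its log2 difference was 0.28 ± 0.17 (SE, edgeR adjusted p = 0.541), 0.47 without corticosterone 1 and 0.08 with both libraries numbered 2 left out. Gadd45a (ENSMUSG00000036390, chromosome 6, 67035096 to 67037457) varied least, at 229, 257 and 234 CPM under corticosterone and 237, 209 and 238 CPM under vehicle. Its log2 difference was 0.07 ± 0.09 (SE, adjusted p = 0.734). It shares 337 exon bases with E230016M11Rik on the other strand, whose level was 0.788 to 1.26 CPM under corticosterone and 0.586 to 1.34 CPM under vehicle. Per kb of exon, Gadd45a made up 58.1, 52.4 and 49.3% of the trio's sum in corticosterone 1, 2 and 3 and 60.6, 57.0 and 58.3% in vehicle 1, 2 and 3. Gadd45g made up 29.8, 31.8 and 35.9% under corticosterone and 25.5, 29.8 and 27.7% under vehicle. The share of Gadd45g in corticosterone 1 was thus level with that in vehicle 2, while those in corticosterone 2 and 3 lay above every vehicle library.

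**Figure D2:**
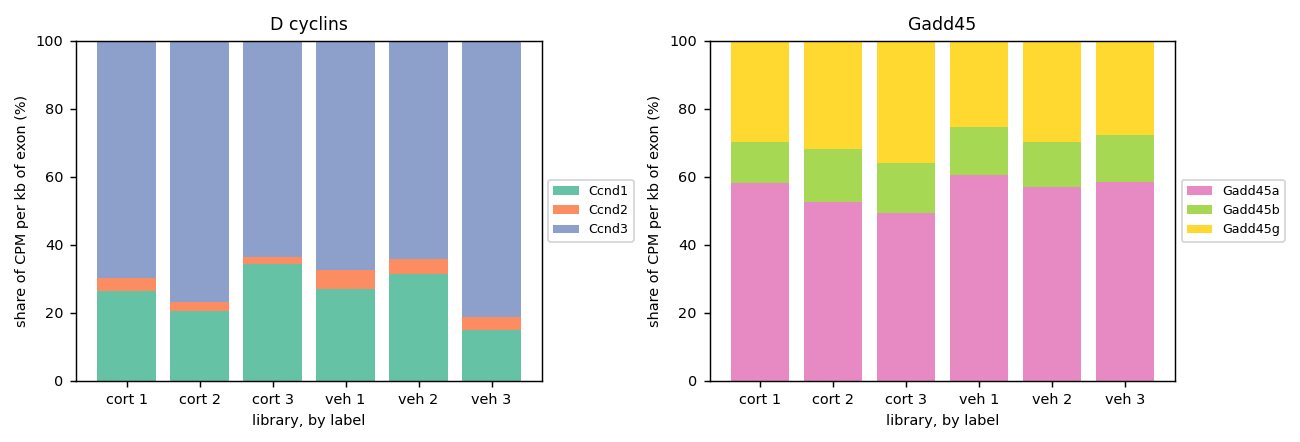
Share of each gene in the summed CPM per kb of exon of its family, in percent, in each library (cort, corticosterone; veh, vehicle). Ccnd3 held 63.7 to 76.9% of the D cyclin sum under corticosterone and 64.2 to 81.2% under vehicle, and Gadd45a held 49.3 to 58.1% of the Gadd45 sum under corticosterone and 57.0 to 60.6% under vehicle.

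Rb1 showed the largest positive difference of the 10 genes. It encodes the retinoblastoma protein, the pocket protein that binds E2F factors and is needed for lasting arrest of myotubes (ENSMUSG00000022105, chromosome 14, 73183673 to 73325822). Rb1 gave 214, 234 and 228 CPM under corticosterone and 133, 139 and 193 CPM under vehicle. The corticosterone libraries lay close together and above all vehicle libraries, of which vehicle 3 came nearest to them. The means were 225 ± 10.6 CPM under corticosterone against 155 ± 33.0 CPM under vehicle (SD, n = 3 each), with 0.54 ± 0.14 (SE) as their log2 difference (edgeR adjusted p = 0.364, DESeq2 adjusted p = 0.053). It was 0.72 without vehicle 3 (edgeR adjusted p = 0.0547), 0.44 without vehicle 1 and 0.44 with both libraries numbered 2 left out. Rb1 shares up to 488 exon bases with Rcbtb2 and Lpar6 on the other strand. Their levels were 19.97 to 22.8 and 3.49 to 4.44 CPM under corticosterone and 21.9 to 26.8 and 3.13 to 4.24 CPM under vehicle. The myotube marker list, of which 11 of 12 genes were tested and none was at 0 counts, summed to 16621, 13833 and 15028 CPM under corticosterone and 11975, 13680 and 15827 CPM under vehicle. It too was lowest in vehicle 1 and 2, though corticosterone 2, the highest library of both Rb1 and Cdkn1a, lay just above vehicle 2. The part of this list in the Rb1 and Cdkn1a values was not tested. In bulk RNA, fewer cells of a type and less RNA per cell cannot be told apart.

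The other pocket protein genes, named after their values were seen, had negative differences. Rbl1, which encodes p107, gave 14.4, 9.97 and 11.2 CPM under corticosterone and 16.0, 14.4 and 15.6 CPM under vehicle. Its libraries did not overlap, though corticosterone 1 lay just below vehicle 2, and its log2 difference was -0.37 ± 0.15 (SE, edgeR adjusted p = 0.406). Rbl2, which encodes p130, differed by -0.20 ± 0.12 (adjusted p = 0.533). In the list of 18 pocket protein, E2F and DREAM complex genes 0 passed, 7 differences were positive and 11 negative, with a median of -0.07. Its most abundant members were Rbbp4, a histone-binding subunit, at 308 ± 21.8 CPM under corticosterone against 291 ± 1.83 CPM under vehicle, and E2f2, an activating E2F, at 103 ± 56.1 CPM under corticosterone against 127 ± 70.5 CPM under vehicle (SD, n = 3 each). Their adjusted p in edgeR were 0.696 and 0.813.

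The D cyclins had unlike patterns across the libraries. Ccnd2 (ENSMUSG00000000184, chromosome 6, 127125162 to 127152193) gave 21.7, 11.3 and 9.04 CPM under corticosterone and 25.5, 19.6 and 19.5 CPM under vehicle. Corticosterone 2 and 3 had the lowest levels, and corticosterone 1 lay within the vehicle range. The log2 difference was -0.62 ± 0.31 (SE, edgeR adjusted p = 0.463), the largest in size of the 10 genes, and ran from -1.08 without corticosterone 1 (adjusted p = 0.0832) to -0.38 without corticosterone 3. Ccnd2 overlaps 2 antisense genes, by up to 372 exon bases, whose counts over all libraries were at most 4. Ccnd3, the cyclin retained in myotubes (ENSMUSG00000034165, chromosome 17, 47505051 to 47599691), gave 345, 304 and 277 CPM under corticosterone and 287, 265 and 382 CPM under vehicle. It was highest in vehicle 3 and then in corticosterone 1, and its log2 difference was -0.015 ± 0.15 (SE, edgeR adjusted p = 0.975), turning to 0.15 without vehicle 3. Ccnd3 shares 361 exon bases with Bysl on the other strand, which stood at 60.9 to 77.04 CPM under corticosterone and 50.7 to 60.2 CPM under vehicle.

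Ccnd1, the cyclin that carries mitogen signals in proliferating myoblasts (ENSMUSG00000070348, chromosome 7, 144929931 to 144939925), gave 69.5, 43.4 and 80.02 CPM under corticosterone and 61.6, 69.5 and 37.9 CPM under vehicle. Both groups ranged widely and overlapped, and the log2 difference was 0.19 ± 0.27 (SE, edgeR adjusted p = 0.796). It was -0.038 without vehicle 3 and 0.59 with both libraries numbered 2 left out. Ccnd1 shares 1100 exon bases with Oraov1 on the other strand, which stood at 27.7, 22.5 and 27.03 CPM under corticosterone and 28.2, 28.1 and 25.8 CPM under vehicle.

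Read as corticosterone 1, corticosterone 3 and vehicle 2 against corticosterone 2, vehicle 1 and vehicle 3, Ccnd1 gave 69.5, 80.02 and 69.5 CPM against 43.4, 61.6 and 37.9 CPM. It was the 1 gene of the 10 that lay higher without overlap in the libraries with high Fkbp5, where 4.89% of all genes did. Gadd45a lay lower without overlap, at 229, 234 and 209 CPM against 257, 237 and 238 CPM (4.74% of all genes), with corticosterone 3 and vehicle 1 close together. In either direction this made 2 of 10, against 9.63% of all genes. Of the 18 genes of the pocket protein and E2F list, 2 lay higher and 1 lower without overlap in this reading. The 2 were Tfdp1 and Tfdp2, which encode dimer partners of E2F and were chosen after their values were seen, and the 1 was E2f2, at 75.5, 65.3 and 58.3 CPM against 167, 124 and 199 CPM. Cdkn1a, Cdkn1b, Cdkn2c, Gadd45b, Gadd45g, Ccnd2, Ccnd3 and Rb1 overlapped in this reading. Cdkn1a, for instance, gave 2469.7, 2745 and 2004 CPM against 2846, 1935 and 2664 CPM.

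Over all 14450 genes the 6 libraries lay in 3 nearest pairs: corticosterone 1 with vehicle 3, corticosterone 2 with corticosterone 3, and vehicle 1 with vehicle 2. The root mean square difference of log2 CPM was 0.36, 0.40 and 0.36 within these pairs, and at least 0.45 to any library outside the pair. Each pair holds 1 library with high and 1 with low Fkbp5. The SE and p-values given by label treat the 6 libraries as independent and take no account of these pairs. Cdkn1a, Cdkn2c, Gadd45g and Rb1 kept every pair adjacent in the ranking of the libraries, 4 of 10 genes, where 21.1% of all genes did so. Within pairs Rb1 differed by at most 0.15 log2 units, against a range of 0.81 over all libraries, and Cdkn1a by at most 0.11, against 0.56. Ccnd1 differed within pairs by 0.87 (corticosterone 1 minus vehicle 3), 0.88 (corticosterone 3 minus corticosterone 2) and 0.17 (vehicle 2 minus vehicle 1). Ccnd1 and Gadd45g were higher in the high-Fkbp5 library of all 3 pairs, 2 of 10 genes against 20.0% of all genes. For Gadd45g the gaps were only 0.06, 0.13 and 0.14. Gadd45a, Gadd45b and Ccnd3 were lower in the high-Fkbp5 library of all 3 pairs, and the matching share of all genes is not given here. In the same order of pairs the gaps were -0.06, -0.13 and -0.18 for Gadd45a and -0.27, -0.14 and -0.16 for Gadd45b. For Ccnd3 they were -0.15, -0.13 and -0.12. In the 1 pair that crosses the labels, Cdkn1b stood at 60.3 CPM in corticosterone 1 and 70.1 CPM in vehicle 3, a gap of -0.22. Rb1 stood at 214 and 193 CPM, a gap of 0.15. Both gaps have the sign of the gene's difference by label. This 1 pair also crosses high and low Fkbp5, and the part of the label in these gaps was not tested.

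**Figure D3:**
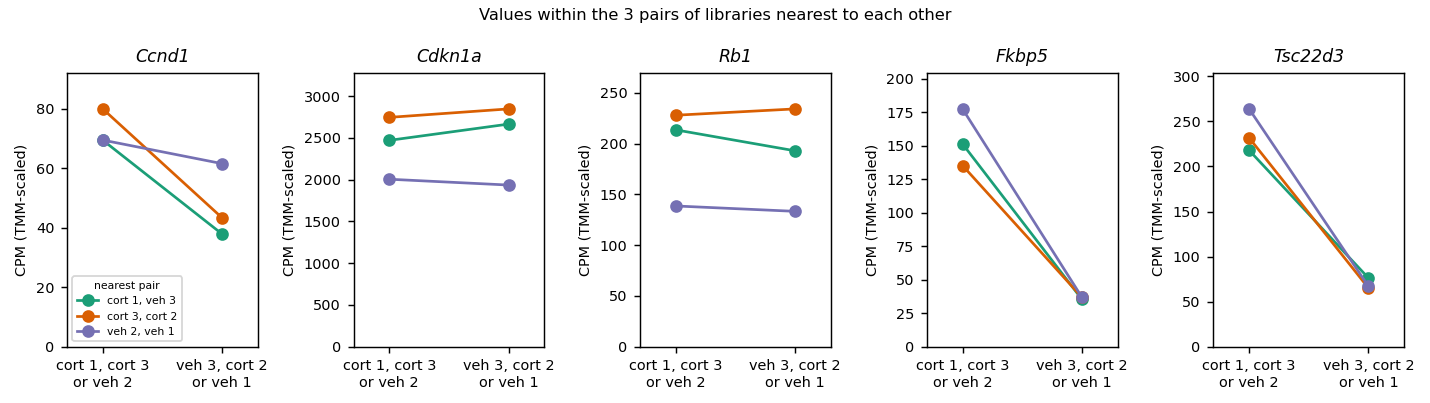
CPM of Ccnd1, Cdkn1a, Rb1, Fkbp5 and Tsc22d3 within the 3 nearest pairs of libraries, each line joining the high-Fkbp5 library on the left to its partner on the right. Ccnd1 slopes down in all 3 pairs, as Fkbp5 and Tsc22d3 do, whereas the lines of Cdkn1a and Rb1 are nearly flat and lie at different heights.

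Most genes of the p53 list had positive differences, as Cdkn1a did, at 0.29. Gadd45a, also a p53 target, differed by only 0.07, and by -0.036 with both libraries numbered 2 left out. The list of 20 genes leaves out both Cdkn1a and Gadd45a. Of the 20, 0 passed the edgeR test, 19 log2 differences were positive and 1 was negative. Their median was 0.23, against 7343 of 14450 positive and a median of 0.004 over all genes. 9 of the 20 did not overlap between the labels, all of them higher, where 8.41% of all genes were higher without overlap. Read as corticosterone 1, corticosterone 3 and vehicle 2 against the rest, 1 of the 20 lay higher without overlap and 0 lay lower. The shares of all genes in that reading were 4.89% and 4.74%. In the same list 11 of 20 genes kept every nearest pair of libraries adjacent in rank, where 21.1% of all genes did, and the part of that pairing in the list's differences was not tested. Ccng1, which encodes cyclin G1 and is the most abundant of the list, gave 550.1, 617 and 720.01 CPM under corticosterone and 336, 419.5 and 444 CPM under vehicle. The lowest corticosterone library thus lay above the highest vehicle library, and the log2 difference was 0.65 ± 0.14 (SE, edgeR adjusted p = 0.364, DESeq2 adjusted p = 0.00934). DESeq2 also called Zmat3, an RNA-binding protein gene, and Aen, an exonuclease gene (adjusted p = 0.0371 and 0.0408). Their edgeR log2 differences were 0.48 ± 0.11 and 0.52 ± 0.13 (SE). DESeq2 thus called 3 of the 20, where it called 0.955% of all genes, and limma-voom called 0 of the 20. Zmat3, Aen and the next 3 genes, and Sesn1, were chosen after their values were seen. Mdm2, the ligase that degrades p53, stood at 226 ± 16.1 CPM under corticosterone against 190.0 ± 9.60 CPM under vehicle, Bax, a pore-forming apoptosis protein gene, at 101 ± 14.5 CPM under corticosterone against 73.4 ± 7.80 CPM under vehicle, and Trp53 itself at 98.8 ± 3.02 CPM under corticosterone against 88.4 ± 5.44 CPM under vehicle (SD, n = 3 each). Eda2r, the next most abundant, varied little, at 332 ± 8.25 CPM under corticosterone against 323 ± 10.5 CPM under vehicle, and Sesn1, a stress-induced sestrin gene, was the 1 gene with a negative difference, -0.24 ± 0.15. The count of positive differences was 17 to 19 in every alternative setting and 19 with both libraries numbered 2 left out. Counting them under the alternatives was decided after the values were seen, and all the settings reuse the same 6 libraries. The list's median deviation from the 6-library mean was 0.04, 0.18 and 0.18 log2 units in corticosterone 1, 2 and 3 and -0.18, -0.09 and -0.09 in vehicle 1, 2 and 3.

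**Figure D4:**
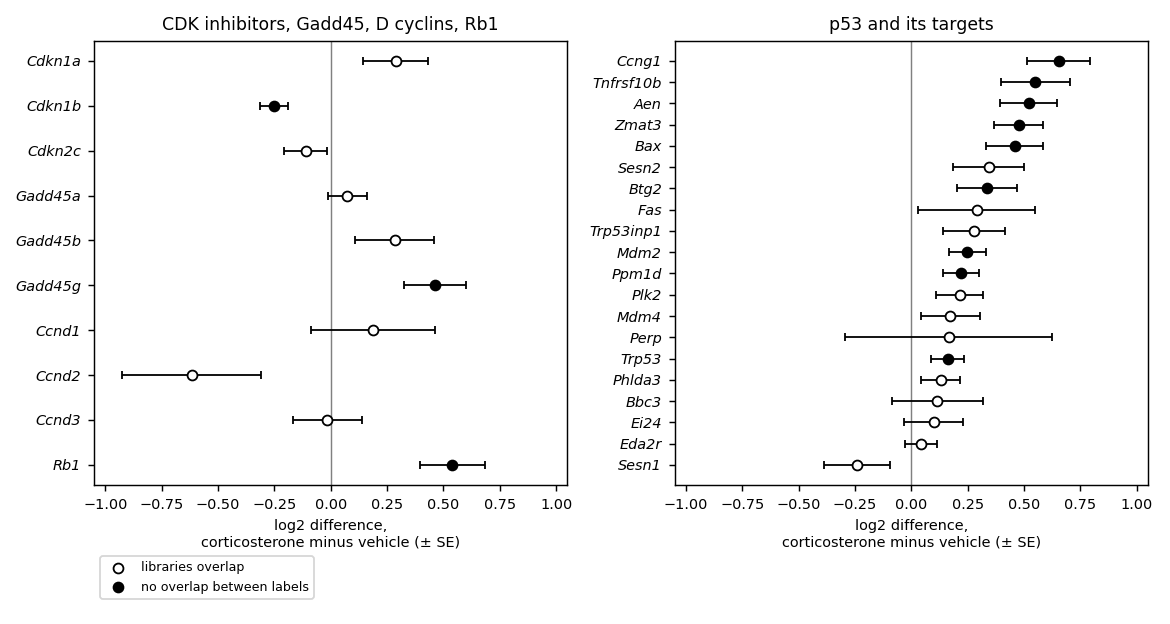
Log2 difference, corticosterone minus vehicle, with its SE from edgeR, for the 10 genes (left) and the 20 genes of the p53 list (right). Black points are genes whose libraries do not overlap between the labels, 3 on the left and 9 on the right, and no gene passed the adjusted threshold.

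**Figure D5:**
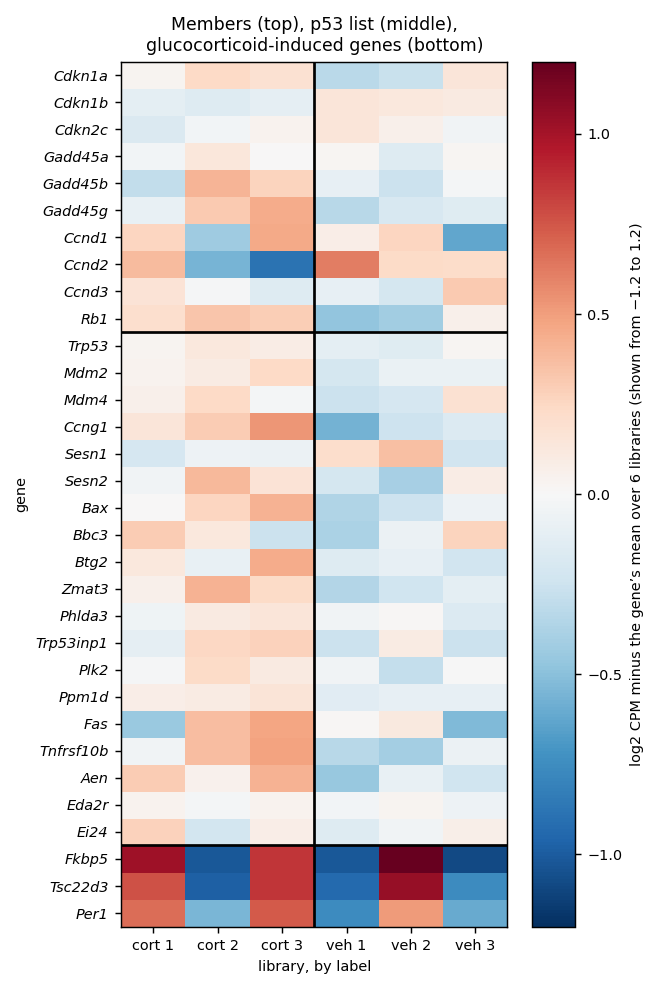
Log2 CPM of each gene minus its mean over the 6 libraries, with corticosterone left and vehicle right of the line, for the 10 genes (top), 19 of the 20 genes of the p53 list (middle; Perp, at under 1 CPM, is left out) and 3 glucocorticoid-induced genes (bottom). Fkbp5, Tsc22d3 and Per1 are high in corticosterone 1, corticosterone 3 and vehicle 2, and of the 10 genes Ccnd1 shares those 3 libraries as its highest.

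In each list of partner genes edgeR and limma-voom called 0. Among 16 CDK partners and later cyclins 4 differences were positive and 12 negative, with a median of -0.24, and 3 lay lower under corticosterone without overlap, where 8.19% of all genes did. DESeq2 called 1 of the 16, where it called 0.955% of all genes. That gene was Ccna2, the S phase cyclin (adjusted p = 0.0137), which was chosen after its values were seen. Cdk4, the kinase that D cyclins activate, stood at 151 ± 3.04 CPM under corticosterone against 163 ± 14.1 CPM under vehicle, and Cdk7, a CDK-activating kinase, at 63.5 ± 5.71 CPM under corticosterone against 60.3 ± 5.64 CPM under vehicle (SD, n = 3 each; adjusted p = 0.595 and 0.779). The myoblast and reserve cell list, with 10 of 10 genes tested, none at 0 and 6 differences negative, summed to 557 to 596 CPM under corticosterone and 606 to 631 CPM under vehicle, and its part in the values of Cdkn1b and Ccnd2 was not tested. Its most abundant genes, Sdc4, a syndecan, and Heyl, a Notch target, overlapped between the labels, at 162 ± 24.5 CPM under corticosterone against 196 ± 54.2 CPM under vehicle and 85.1 ± 7.84 CPM under corticosterone against 65.4 ± 35.3 CPM under vehicle (SD, n = 3 each). Top2a, a topoisomerase gene of dividing cells, was the 1 gene of that list without overlap, and it is named because of that value. Top2a gave 57.7, 58.3 and 56.7 CPM under corticosterone and 74.7, 70.9 and 68.8 CPM under vehicle. It was called lower under corticosterone by DESeq2 (adjusted p = 0.0398), which called 0.955% of all genes. Neither edgeR (adjusted p = 0.364) nor limma-voom called it. Among 12 Gadd45 partners and stress kinases 7 differences were positive and 5 negative, with a median of 0.0063. Map2k3, a kinase that activates p38, stood at 139 ± 11.1 CPM under corticosterone against 116 ± 5.62 CPM under vehicle, and Map2k4, which activates JNK, at 99.8 ± 7.87 CPM under corticosterone against 96.8 ± 4.19 CPM under vehicle. Their adjusted p in edgeR were 0.364 and 0.842. In the list of ligases that degrade p27 and D cyclins, 11 of 12 genes were tested, 5 differences were positive and 6 negative, and Ddb1, a scaffold of CUL4 ligases, and Cul1, the SCF scaffold, differed by 0.19 ± 0.11 and -0.08 ± 0.09.

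Genes nearest in pattern were sought for the 3 of the 10 with the widest range over the libraries, as the smallest root mean square difference of mean-centred log2 CPM over 6 libraries among tested genes of at least 10 CPM. For Ccnd1 these were Rab3il1 (0.11), Id3 (0.12) and Pmp22 (0.17). Id3, an inhibitor of myogenic bHLH factors, gave 72.4, 46.9 and 101 CPM under corticosterone and 59.1, 78.6 and 38.8 CPM under vehicle. Id3 was thus higher in corticosterone 1, corticosterone 3 and vehicle 2 than in their pair partners, as were Rab3il1 and Pmp22. These genes were picked for their likeness to Ccnd1, which has this pattern, so their sharing it adds no support. Pmp22 overlapped in that reading, with vehicle 1 at 81.0 CPM above corticosterone 1 at 66.2 CPM. For Ccnd2 they were Mgam (0.11), Lrrc8b (0.13) and Sirpa (0.13), all lowest in corticosterone 2 and 3, and for Rb1 Acy1 (0.06), Ppm1e (0.06) and Setd1a (0.07), all lowest in vehicle 1 and 2. The 6 libraries behind each value share treatment labels and nearest pairs, so these are descriptions.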

How the data were processed

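The authors deposited raw counts, 1 row a gene and 1 column for each of 6 RNA libraries. Per the submitters' processing notes, HISAT2 2.0.5, HTSeq 0.6.1, DESeq2 1.24.0 and build mm10 were used; the sources used here do not give settings, strand or annotation, so reads of overlapping genes cannot be told apart. GENCODE M21 (GRCm38) gave coordinates and exon lengths and matched 98.95% of gene rows. Every column of the table was mapped to a library by its name.

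Counts were tested with edgeR 4.0.16 (R 4.3.3; quasi-likelihood F-test, TMM, filterByExpr, two-sided, Benjamini-Hochberg adjustment over 14450 genes, threshold 0.05), without a replicate block. CPM are TMM-scaled; log2 CPM for distances used a prior count of 2. The test was checked on simulated data. Alternatives were DESeq2 1.42.0, limma-voom (limma 3.58.1), other scalings, count filters, a replicate block and left-out libraries.

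The genes and lists were chosen with earlier results of these data known. Named genes were the 10 members, the label-check genes and, per list, genes called by edgeR or, with fewer than 2 of these, the 2 of highest mean CPM; others, those called by DESeq2 alone included, were chosen after their values were seen. 1 listed gene, Skp1, and no other was unmatched by name. The number of libraries limits precision, and the floor of 3 counts covers counting error only.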

Additional observations from a re-analysis of the deposited data

How the results depend on the processing

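No call was made among the 10 genes under any of the 15 alternative settings. Over all genes the count of 0 became 138 by DESeq2, 0 to 29 with 1 library left out (29 without corticosterone 1, 11 without vehicle 3) and 3 with both libraries numbered 2 left out, and stayed 0 under limma-voom, 3 other scalings, 2 other count filters and the replicate block. The genes without overlap between the labels numbered 3 of 10 at first, where 16.6% of all genes did not overlap. They numbered 3 to 6 with 1 library left out (6 without corticosterone 1, 5 without vehicle 3) and 5 with both libraries numbered 2 left out. Fewer libraries overlap more rarely, and the shares of all genes with libraries left out are not given here. These counts are therefore not read as a result about the 10 genes. Genes without overlap in the other reading numbered 2 of 10 at first, where 9.63% of all genes did not overlap, and 2 to 3 with 1 library left out. The share of all genes with 1 library left out is not given for this reading either. With both libraries numbered 2 left out, both readings compare corticosterone 1 and 3 with vehicle 1 and 3. The 5 genes without overlap there are therefore 1 count, not a separate result for each reading. Directions turned for Gadd45a (-0.036 with both libraries numbered 2 left out), Ccnd1 (-0.038 without vehicle 3; -0.038 to 0.41 with 1 library left out) and Ccnd3 (0.057 without corticosterone 3 and 0.15 without vehicle 3; -0.12 to 0.15); the cause was not tested. The other 7 genes kept their direction in all 15 settings. Scaling moved the median of all genes from 0.004 to -0.0445 at the farthest, with library totals only. With replicate number as a block 0 genes were called, overall or among the 10. Same-numbered libraries did not deviate together, with correlations over genes of -0.15, -0.27 and -0.32, so the numbers were not taken as pairs. The deviations were taken from the means of the labelled groups. Since some labels are contradicted, this check cannot settle whether same-numbered libraries were paired. With 3 libraries a group, differences of the size seen here were not called, which does not show that levels were equal.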
